A study of Mus musculus with 4 samples.

Results

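The genes described here encode enzymes that write or erase DNA methylation, an enzyme that writes histone methylation, and proteins that bind a histone deubiquitinase. They are the additional sex combs-like genes Asxl1, Asxl2 and Asxl3, the 5-methylcytosine dioxygenases Tet1, Tet2 and Tet3, the DNA methyltransferases Dnmt1, Dnmt3a and Dnmt3b, and the histone methyltransferase Ezh2. They were measured by RNA-Seq in Lin-LEPR+ bone marrow cells, a fraction that holds skeletal stem/progenitor cells (SSPCs), from wild-type C57Bl/6 mice. Mature mice were 3 months old and elderly mice 24 months old, with 2 libraries per age. The labels' titles number the libraries of each age as mouse 1 and mouse 2, whereas the protocol text says that RNA of 3 or 4 mice of a group was combined. Whether the libraries of an age came from separate animals or pools is thus not settled, and an SD with n = 2 and every p describe the spread between libraries, which may be technical. The labels call the source bone marrow, whereas the methods describe male mice and cells sorted as negative for Ter119, CD31 and CD45 and positive for the leptin receptor. The 10 genes are 10 of 33924 in the annotation, of which 21340 were tested, all 10 among them. They were chosen by family name, and Asxl3 was in addition selected on its counts in these libraries. The age difference of Asxl3 is therefore given as a description without a test.

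DNA methylation is laid down on unmethylated DNA by Dnmt3a and Dnmt3b and copied to the new strand after replication by Dnmt1. The Tet enzymes oxidize 5-methylcytosine, the first step of its removal. Ezh2 is the catalytic subunit of Polycomb repressive complex 2 (PRC2), which methylates lysine 27 of histone H3. Asxl proteins bind the deubiquitinase Bap1, and the complex removes ubiquitin from histone H2A. Several of these genes are known in bone marrow as targets of recurrent mutation in aged blood stem cells, which are CD45-positive cells that the sort was meant to remove.

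The libraries held between 10472117 and 15650518 counts. A count could be assigned only to a base that lies in the exons of a single annotated transcript. All 25621 transcripts without such a base had 0 counts in every library. Among them were 807 with some bases that were shared only with transcripts of the opposite strand. Bases in the exons of a single transcript are called countable here. All 12 genes of a list of LEPR+ stromal markers, among them Lepr, Cxcl12 and Kitl, were detected in every library. Between the ages, 0 of them passed the test in edgeR's quasi-likelihood fit, but all 12 had a log2 fold change below 0, with a median of −0.44. The summed level of the 12 genes was 32053 and 32457 CPM (counts relative to the size of the library, scaled with its TMM factor) in the mature libraries and 19508 and 28692 CPM in the elderly libraries.

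How much of each gene was countable decided what its value stands for. Dnmt1, on the reverse strand of chromosome 9 from 20711650 to 20757317 (mm9), has 1 annotated transcript that shares no base with another, and all 4860 of its coding bases were countable. Tet3, on chromosome 6 from 83312367 to 83391672, had 7631 countable bases, of which 1777 were coding and 5672 untranslated. Tet2, on chromosome 3 from 133126643 to 133207354, had 3467 countable bases, of which 3440 were untranslated and 27 coding. The counts of Dnmt1, Tet2 and Tet3 thus came from exons of protein-coding transcripts, which took 99.8% of the counts of Tet3 and 100% of those of Tet2.

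The other genes have several transcripts that overlap, and little of their coding sequence was countable. Ezh2, on chromosome 6 from 47480273 to 47545340, has 13 annotated transcripts, of which 8 had no countable base, and 0 of its coding bases were countable. Retained-intron transcripts, in which an intron of the coding transcript is kept, held 99.7% of its counts. Dnmt3b, on chromosome 2 from 153475186 to 153513466, had 780 countable bases, all outside the exons of its coding transcripts, and retained-intron transcripts held 100% of its 80 counts. For Dnmt3a, on chromosome 12 from 3806007 to 3914443, they held 76.2% of the counts, and for Asxl2, on chromosome 12 from 3426857 to 3506852, they held 56.5%. Asxl1, on chromosome 2 from 153171581 to 153229743, had 501 countable bases, of which 3 were coding. Tet1, on chromosome 10 from 62267318 to 62361866, had 581 countable bases, of which 8 were coding. Across all genes, retained-intron transcripts held 4.10% and 3.88% of the counts in the mature libraries and 3.91% and 3.03% in the elderly libraries. A value of Ezh2, Dnmt3a or Dnmt3b is thus mainly a value of intronic sequence, and a low value of these genes, Asxl1 or Tet1 was not read as low expression.

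**Figure D1:**
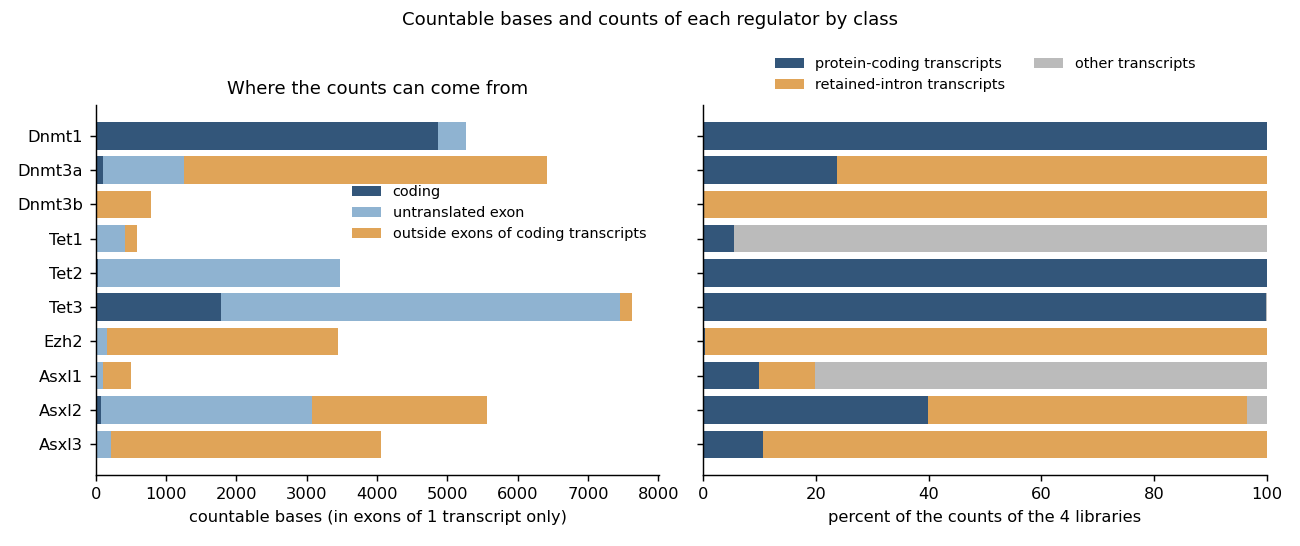
The left panel plots for each gene the number of countable bases that are coding, untranslated, or outside the exons of coding transcripts. The right panel plots the percent of its counts, over the 4 libraries, on protein-coding, retained-intron and other transcripts. Only for Dnmt1, Tet2 and Tet3 do protein-coding transcripts hold nearly all of the counts, whereas retained-intron transcripts hold 99.7% of those of Ezh2.

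The places where the kept intron begins in 5 retained-intron transcripts are shown next, since they mark sequence that reads were counted on. Some of these transcripts, such as Dnmt3a-002, also have countable bases before that place. Each run was read from the mm9 genome in the direction of transcription. The 20 capitals are coding bases of the exon, which other transcripts share, and the 40 lower-case bases are the kept intron, which were countable. All 5 introns open with GT, the usual first bases of an intron.
Ezh2-009 (chr6:47492325-47492384, reverse strand): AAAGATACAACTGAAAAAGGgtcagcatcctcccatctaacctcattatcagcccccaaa
Dnmt3a-002 (chr12:3835241-3835300, forward strand): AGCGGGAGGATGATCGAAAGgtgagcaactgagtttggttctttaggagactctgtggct
Dnmt3a-003 (chr12:3866233-3866292, forward strand): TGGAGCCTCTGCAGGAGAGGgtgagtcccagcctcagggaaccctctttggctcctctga
Dnmt3b-010 (chr2:153493379-153493438, forward strand): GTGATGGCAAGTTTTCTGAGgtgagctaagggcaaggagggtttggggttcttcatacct
Asxl2-005 (chr12:3451751-3451810, forward strand): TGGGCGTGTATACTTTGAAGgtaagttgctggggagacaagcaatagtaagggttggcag

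Of the 9 genes other than Asxl3, 0 passed an adjusted p of 0.05 in the comparison of elderly with mature cells (edgeR's quasi-likelihood test, two-sided, Benjamini-Hochberg over all 21340 genes), against 2.73% of all genes tested. Of all genes, 2.28% were called higher and 0.45% lower in elderly cells. At an unadjusted p under 0.05 there was 1 of the 9, Dnmt1, and DESeq2 and the exact test at a dispersion of 0.2 also called 0. The fitted log2 fold change was above 0 for Dnmt1 and Tet3 and below 0 for the other 7. The median over the 9 genes was −0.27, beside 0.016 over all genes tested. For 4 of the 9 genes the libraries of the ages did not overlap, against 40.9% of all genes. In bulk RNA, fewer cells that express a gene and less RNA per cell cannot be told apart.

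Dnmt1, which maintains methylation through cell division, had 142 and 147 CPM at 3 months and 240.0 and 185 CPM at 24 months. Both elderly libraries lay above both mature ones, and elderly replicate 1 was the highest. The means were 144 ± 3.08 and 212 ± 39.1 CPM (SD, n = 2 per age). The log2 fold change was 0.56 (95% interval 0.11 to 1.00), with an unadjusted p of 0.018 and an adjusted p of 0.259 from edgeR's quasi-likelihood fit. It was between 0.34 and 0.73 when each library was left out in turn.

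Dnmt3a, a de novo methyltransferase, had 23.7 and 34.9 CPM at 3 months and 28.4 and 20.2 CPM at 24 months. The ages overlapped, and the log2 fold change was −0.27 (95% interval −0.87 to 0.33, edgeR adjusted p = 0.810). Dnmt3b, the other de novo enzyme, was counted 25 and 21 times in the mature and 19 and 15 times in the elderly libraries. The elderly values in CPM, 1.71 and 0.990, lay below the mature values of 2.15 and 1.80. The log2 fold change of −0.56 had an interval from −1.82 to 0.69 (edgeR adjusted p = 0.812), so that neither a higher nor a lower level was shown.

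Tet2 had 104 and 89.0 CPM at 3 months and 85.1 and 77.1 CPM at 24 months. Both elderly values lay below both mature ones, but the difference did not pass the test, with a log2 fold change of −0.25 (95% interval −0.69 to 0.19, edgeR adjusted p = 0.717). Tet3 had 120.4 and 148 CPM at 3 months and 166 and 147 CPM at 24 months. The ages overlapped, since elderly replicate 2 lay below mature replicate 2, and the log2 fold change was 0.22 (95% interval −0.22 to 0.66, edgeR adjusted p = 0.767). These intervals leave out a change of 2-fold for both genes. Tet1 was counted 16 and 8 times in the mature and 2 and 11 times in the elderly libraries, and nearly all of these counts lay on 169 bases of the noncoding transcript Tet1-002. Its log2 fold change of −1.12 had an interval from −3.11 to 0.87 (edgeR adjusted p = 0.724), and it was −0.52 without elderly replicate 1 and −2.45 without elderly replicate 2.

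Ezh2 had 37.8 and 42.1 CPM at 3 months and 42.7 and 32.7 CPM at 24 months. The ages overlapped, and the log2 fold change was −0.09 (95% interval −0.59 to 0.42, edgeR adjusted p = 0.946) and 0.09 without elderly replicate 2. Asxl1 was counted 51 and 33 times in the mature and 29 and 38 times in the elderly libraries, or 4.39 and 2.83 against 2.60 and 2.51 CPM. The elderly values lay just below the lower mature one (log2 fold change −0.50, 95% interval −1.45 to 0.46, edgeR adjusted p = 0.755). With coding transcripts only, which hold 15 of its counts, the direction turned to 1.15 (edgeR adjusted p = 0.823). Asxl2 had 8.26 and 12.5 CPM at 3 months and 11.3 and 5.61 CPM at 24 months, a log2 fold change of −0.31 (95% interval −1.12 to 0.50, edgeR adjusted p = 0.862), and the ages overlapped. It was −0.90 without elderly replicate 1, 0.12 without elderly replicate 2 and 0.35 with coding transcripts only. Its transcripts differed in the sign of the fitted change, and neither of those named next passed the test. The coding transcript Asxl2-003 had 2.10 and 4.17 CPM at 3 months and 5.17 and 3.35 CPM at 24 months, and the retained-intron transcript Asxl2-005 had 5.47 and 7.997 against 5.88 and 2.12 CPM.

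**Figure D2:**
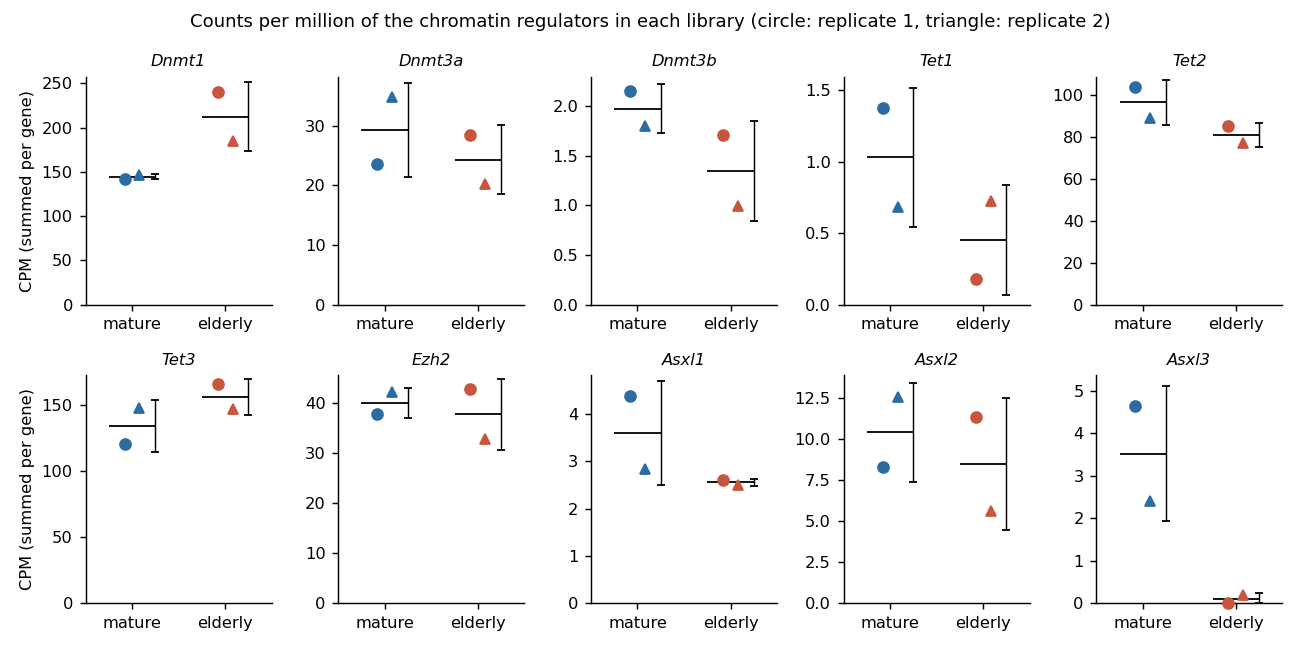
Each panel plots the CPM of 1 gene in the 2 mature and 2 elderly libraries, with the mean (line) and SD (bar, not drawn below 0) per age, on a linear axis from 0. Both elderly values of Dnmt1, 240.0 and 185 CPM, lie above the mature values of 142 and 147 CPM, and those of Asxl3 lie at or close to 0.

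**Figure D3:**
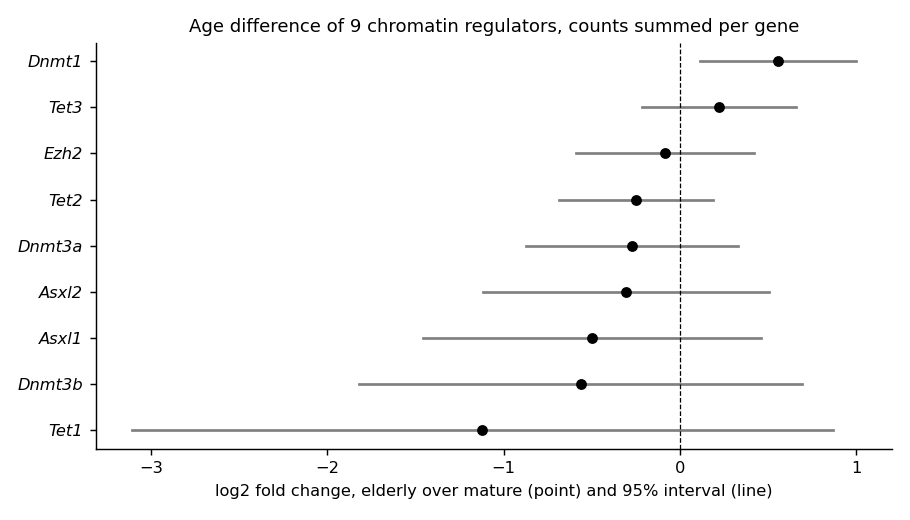
The plot gives the log2 fold change of elderly over mature cells (point) and its 95% interval (line) for the 9 genes other than Asxl3. The interval of Dnmt1 runs from 0.11 to 1.00, and the intervals of the other 8 genes include 0.

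Levels were compared between genes as CPM per kilobase of countable bases. Dnmt1 was highest, from 27.03 to 45.6 over the 4 libraries, followed by Tet2 from 22.2 to 30.0 and Tet3 from 15.8 to 21.7. The ranges of Dnmt1 and Tet2 overlapped. Ezh2 came next with 9.47 to 12.4, then Asxl1 with 5.005 to 8.76 and Dnmt3a with 3.15 to 5.44. Below them were Dnmt3b (1.27 to 2.76), Asxl2 (1.01 to 2.25), Tet1 (0.309 to 2.37) and Asxl3 (0 to 1.15), and neighbours in this part of the order overlapped. Only the values of Dnmt1, Tet2 and Tet3 rest nearly entirely on exons of coding transcripts. Those of the other genes rest largely on kept introns or on short stretches. Untranslated bases made up 3440 of 3467 countable bases in Tet2 and 5672 of 7631 in Tet3, against 404 of 5264 in Dnmt1. Whether coverage differed between coding and untranslated bases was not tested, so the order of Dnmt1, Tet2 and Tet3 is also a description only.

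A ratio of 2 genes within a library does not depend on the scaling of libraries. The log2 ratio of counts of Dnmt1 to Dnmt3a, with 0.5 added to each count, was 2.59 and 2.07 at 3 months and 3.08 and 3.19 at 24 months. The ages did not overlap, and the elderly mean was higher by 0.81. This ratio sets exons of Dnmt1 against Dnmt3a, of whose counts 76.2% lay on retained-intron transcripts. The ratios with Ezh2, Dnmt3b or Asxl2 also rest largely on kept introns. They are thus not ratios of coding transcripts, and the part of intron content in them was not tested. The log2 ratio of Tet2 to Tet3 was −0.21 and −0.73 at 3 months and −0.96 and −0.93 at 24 months, lower by a mean of −0.47 without overlap. Ezh2 over its paralog Ezh1 was 0.39 and 0.35 against 0.43 and 0.64. Asxl1 over Asxl2 and Dnmt3a over Dnmt3b overlapped between the ages, with differences of −0.11 and 0.32. With 2 libraries against 2, the exact permutation test cannot give a p below 0.333, which it gave for the 3 ratios that did not overlap, so that this test could call none of the 5 ratios.

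The transcripts were also tested singly. Of 71 transcripts of the 10 genes, 34 had no countable base, 31 had a count and 29 were tested. Of the 27 tested transcripts outside Asxl3, 0 passed an adjusted p of 0.05 in edgeR's quasi-likelihood fit over 42413 transcripts, against 1.66% of all transcripts. At an unadjusted p under 0.05 there was 1, the transcript of Dnmt1, and DESeq2 and the exact test called 0. The libraries of the ages did not overlap for 12 of the 27, against 37.7% of all transcripts.

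Retained-intron transcripts of the same gene are given singly next. Ezh2-009, with 1384 countable bases, had 21.1 and 22.9 CPM at 3 months and 20.6 and 15.4 CPM at 24 months. Ezh2-012, which lies nearer to the 3′ end of the gene and has 1288 countable bases, had 11.7 and 13.9 CPM at 3 months and 17.3 and 13.7 CPM at 24 months. The log2 ratio of Ezh2-012 to Ezh2-009 was −0.85 and −0.72 at 3 months and −0.25 and −0.17 at 24 months (exact permutation p = 0.333, the smallest that 4 libraries allow). This pair was chosen after its values were seen, and neither transcript passed the test between the ages (edgeR adjusted p = 0.866 and 0.898), so that a difference in direction is not shown. In Dnmt3a, the first retained intron, Dnmt3a-002, had 9.76 and 13.4 CPM at 3 months and 7.93 and 7.58 CPM at 24 months, whereas Dnmt3a-003 had 5.81 and 12.2 against 13.2 and 8.13 CPM. The elderly values lay below the mature ones for Dnmt3a-002 and overlapped with them for Dnmt3a-003, and neither difference passed the test (edgeR adjusted p = 0.709 and 0.952).

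**Figure D4:**
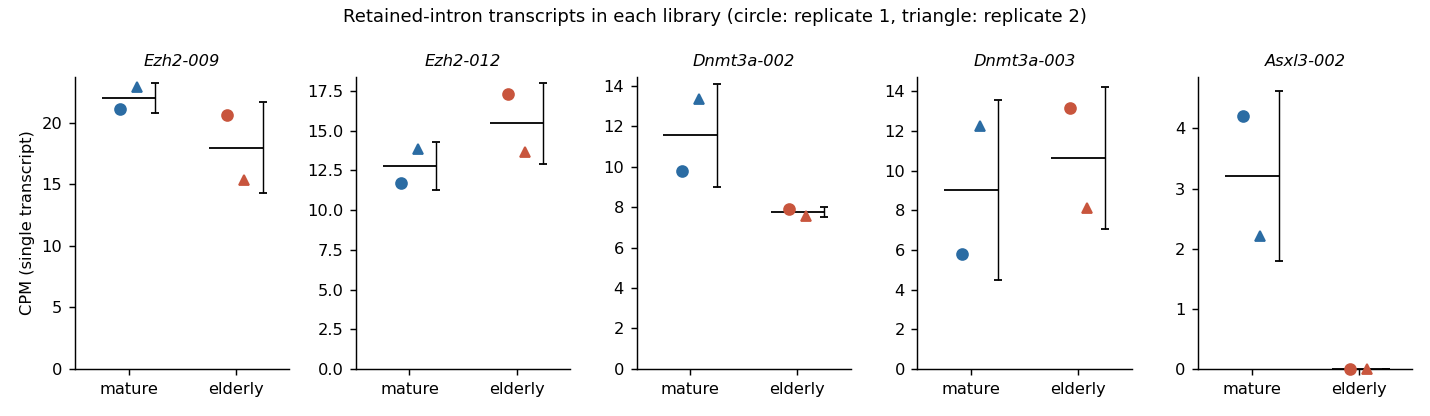
Each panel plots the CPM of 1 retained-intron transcript in the 4 libraries, with mean (line) and SD (bar) per age, on a linear axis from 0. Ezh2-009 and Dnmt3a-002 are lower in both elderly libraries, Ezh2-012 and Dnmt3a-003 overlap between the ages, and Asxl3-002 is at 0 in both elderly libraries.

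Partners of these genes were described with 7 lists. Of 103 genes listed, 96 were tested, and 1 was higher and 0 were lower at an adjusted p under 0.05 (edgeR's quasi-likelihood fit). Over all genes tested, 2.28% were called higher and 0.45% lower, so that the partners did not stand out. At an unadjusted p under 0.05 there were 9 partner genes. The called gene was Neil3, a DNA glycosylase of base excision repair. It had 66 and 33 counts at 3 months and 155 and 170 counts at 24 months, or 4.26 ± 2.02 and 12.6 ± 1.91 CPM (SD, n = 2), so that it rose by 1.56 ± 0.37 (log2, SE) at an edgeR adjusted p of 0.042. The call did not hold in the edgeR exact test (adjusted p = 0.451), with filterByExpr (0.0501), or without mature replicate 2 (log2 fold change 1.10), elderly replicate 1 (1.38) or elderly replicate 2 (1.71), and without mature replicate 1 the change was 2.14. For 10 of the 103 genes, the countable bases came to under 10% of the longest transcript.

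Among the partners of the Asxl proteins, 0 of 11 genes of H2A deubiquitination passed, with a median log2 fold change of −0.21. The deubiquitinase Bap1 itself had 1926 and 1730 counts at 3 months and 1798 and 2716 counts at 24 months (log2 fold change 0.12, edgeR adjusted p = 0.916). Of the other PRC2 genes, 0 of 10 passed, with a median of −0.18. Eed, a core subunit, stood at 0.11 (edgeR adjusted p = 0.932) and Ezh1, the other catalytic subunit, at −0.24 (0.833). Suz12, also a core subunit, was counted on only 573 bases, 55 and 38 times in the mature and 30 and 21 times in the elderly libraries (log2 fold change −0.99, standard error 0.48, edgeR adjusted p = 0.492). Of 22 tested genes of Polycomb repressive complex 1, 17 had a log2 fold change below 0, with a median of −0.18, and 0 passed. The 8 histone demethylases of H3K27 and methyltransferases of H3K4 had a median of −0.31, with 7 below 0 and 0 called.

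Of 15 tested cofactors and readers of DNA methylation, 0 passed, with a median of 0.013. Hells, a chromatin remodeler needed for methylation, had 163 and 171 counts at 3 months and 382 and 308 counts at 24 months, or 14.3 ± 0.448 and 27.3 ± 9.89 CPM (SD, n = 2). Its log2 fold change of 0.93 (standard error 0.29) had an adjusted p of 0.153 in edgeR's quasi-likelihood fit. The adjusted p lay below 0.05 in the robust fit (0.0423) and without a filter (0.0382). The same held with the replicate number as a term (0.0212) and with coding transcripts only (0.0497). It stayed above 0.05 in DESeq2 (0.111), the exact test, and the other filters and scalings (0.0968 to 0.146). Elderly replicate 1 had 34.3 CPM and elderly replicate 2 had 20.3 CPM. Leaving out the former lowered the change to 0.49, and leaving out the latter raised it to 1.26. With either mature library removed it was 0.89 or 0.91. Uhrf1, which guides Dnmt1 to newly replicated DNA, was counted on 706 bases only, 11 and 8 times in the mature and 14 and 25 times in the elderly libraries (log2 fold change 0.83, edgeR adjusted p = 0.721). Of 17 tested partners of demethylation, Neil3 was the only call. Tdg, which excises the oxidized bases that the Tet enzymes make, had 8.42 ± 0.828 CPM in mature and 8.21 ± 0.969 CPM in elderly cells (SD, n = 2). Of 13 tested genes for the supply of the methyl donor, 0 passed, with a median of 0.18.

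Germline genes, which DNA methylation is known to keep silent in body cells, were mostly at a few counts or none. Of 16 listed, 8 had 0 counts in all 4 libraries, and 5 were tested, of which 0 passed. Piwil2, with 29 and 38 counts at 3 months and 34 and 46 counts at 24 months, had a log2 fold change of 0.08 (standard error 0.44). Brdt was counted 25 and 33 times in mature and 30 and 54 times in elderly cells, and each of the other 14 genes had at most 4 counts in a library. Some of these have few countable bases, such as Stk31 with 32, so that 0 counts there say little. For the genes at 0, 3 counts or 0.198 to 0.269 CPM per library is the limit that such a count allows, and this covers counting error only.

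**Figure D5:**
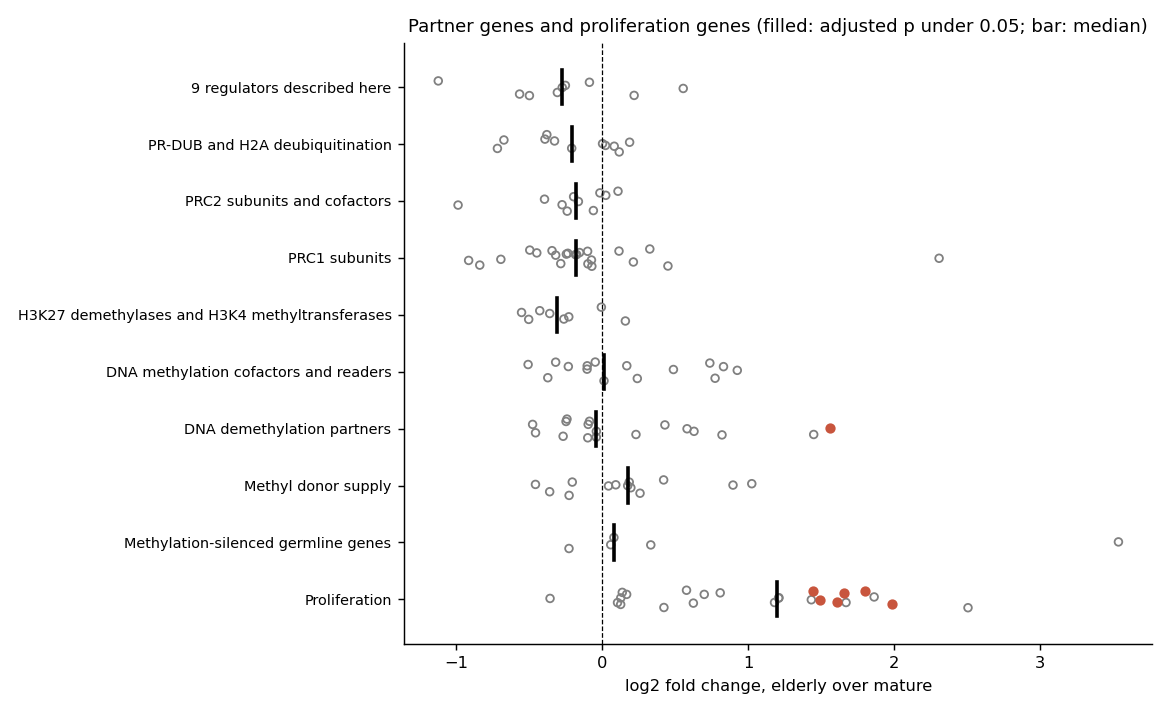
Each point is the log2 fold change of elderly over mature cells of 1 tested gene, by list. Filled points have an adjusted p under 0.05, and the bar is the median of the list. The 9 regulators have a median of −0.27, the proliferation genes one of 1.19, and Neil3 is the only filled point among the partner genes. The points furthest right among the PRC1 and germline genes, Bcor and Ddx4, rest on 14 counts and 3 counts in all.

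Genes of dividing cells were examined beside Dnmt1 and Hells. Of 24 proliferation genes tested, 6 were higher and 0 lower in elderly cells (edgeR's quasi-likelihood fit). Of all genes tested, 2.28% were called higher and 0.45% lower. The median of the list was 1.19 (log2 fold change), and 16 had both elderly libraries above both mature ones. Of all genes, 40.9% did not overlap between the ages in either direction. Pcna had both elderly libraries below both mature ones (log2 fold change −0.36), and the other 23 genes had a log2 fold change above 0. Mki67, a marker of cycling cells, had 169 ± 104 CPM (SD, n = 2) at 3 months and 585 ± 128 CPM at 24 months, and rose by 1.80 in log2 terms (edgeR adjusted p = 0.014). Top2a, needed to separate chromosomes, rose by 1.61 in the same terms (edgeR adjusted p = 0.022). Neither call held in the robust fit (adjusted p = 0.413 for Mki67 and 0.318 for Top2a) or the edgeR exact test (0.257 and 0.382), and in DESeq2 that of Mki67 did not (0.122). Neither held without mature replicate 2 (log2 fold changes 1.23 and 1.07), elderly replicate 1 (1.53 and 1.29) or elderly replicate 2 (2.00 and 1.86), and without mature replicate 1 the changes were 2.62 and 2.36. The summed level of the list was 610 and 342 CPM at 3 months and 1448 and 1014 CPM at 24 months. The order of the elderly libraries was the same for Dnmt1, 240.0 and 185 CPM, and that of the mature libraries was not. The part of dividing cells in the values of Dnmt1 was not tested.

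Markers of other cell types, most of which the sort was meant to remove, changed as well. They are given beside the 2.28% of all genes tested that were called higher and the 0.45% called lower. Of 9 tested erythroid genes, 7 were higher, among them the anion exchanger Slc4a1, the highest of the list (log2 fold change 2.30), and the list's summed level was 240.1 and 99.98 CPM at 3 months and 748 and 848 CPM at 24 months. Of 11 neutrophil genes, 7 were higher, among them S100a8 (1.31), with summed levels of 2118 and 1215 against 4550.4 and 4489 CPM. Of 7 macrophage genes 4, of 6 plasma cell genes 2 and of 10 B-lineage genes 1 were higher, with summed levels of 26.2 to 26.4, 119 to 144 and 34.3 to 42.7 CPM in mature and 51.8 to 88.4, 156 to 167 and 66.6 to 99.2 CPM in elderly cells. Mrc1 (1.93) and Rag1 (1.24) were the highest macrophage and B-lineage genes, and Sdc1, the highest plasma cell gene, did not pass (−0.51). The 2 called plasma cell genes were Igj (4.03) and Prdm1 (8.52), the latter with 0 counts in both mature libraries. Of the 6 plasma cell genes tested, 3 had a log2 fold change above 0 and 3 below. The list's summed level includes Sdc1 and Xbp1, with means of 69.8 and 54.7 CPM in mature and 48.9 and 43.5 CPM in elderly cells. Of 4 T cell, 7 megakaryocyte, 6 endothelial and 6 stem and progenitor genes, 0 passed, and the highest summed level of these lists in any library was 371 CPM, that of the megakaryocyte genes in mature replicate 2. Their highest genes were Cd3e, Itgb3, Pecam1 and Hoxa9, with log2 fold changes of 3.31, 0.42, −0.83 and −0.57. Of 5 osteoblast genes, 1 was lower (Ibsp, the highest of the list, log2 fold change −1.39), with summed levels of 6017 to 6676 CPM in mature and 1525 to 3445 CPM in elderly cells. Of the marker genes, 6 were at 0 in all libraries, namely Cd79b, Cd22, Irf4, Cd163, Tek and a megakaryocyte gene. They had between 3 and 236 countable bases each. Without mature replicate 2, 18 of the proliferation and marker genes were called, without elderly replicate 1 there were 2 and without elderly replicate 2 there were 0, against 28 with all libraries. The part of these cells in the values of the 10 genes was not tested.

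Asxl3 (chromosome 18, forward strand, 22503384 to 22688728) had 54 and 28 counts at 3 months and 0 and 3 counts at 24 months, or 4.65 and 2.40 CPM against 0 and 0.198 CPM. The summed counts of 82 against 3 give a level 30.9-fold higher in mature cells, with an exact 95% interval of 10.2 to 153 that covers counting error only. Of its counts, 89.4% lay on the retained-intron transcript Asxl3-002, which has 2 exons with 3916 bases from 22503384 to 22537451, of which 3833 were countable. This transcript was counted 50 and 26 times in the mature libraries and 0 times in both elderly ones. Its mature mean in CPM was 13.6-fold the mean limit of 3 counts per elderly library. That ratio leaves out the spread and counting error of the mature libraries, so it is not a lower bound. The coding transcript Asxl3-201 had 215 countable bases, of which 2 were coding. It was counted 4 and 2 times in the mature and 0 and 3 times in the elderly libraries, a ratio of 2.19 (exact 95% interval 0.467 to 13.5). These intervals describe counting error in a gene selected on these counts, and the transcripts were not compared by a test. As a description with no test, the fitted log2 fold change of the gene was −4.86, and it depends on the prior count. It moved to −8.34 without elderly replicate 2, the only elderly library with a count, and to −3.77 with a prior count of 2.

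The promoter windows of 9 genes, 250 bases before to 50 bases after each start (RefSeq, GRCm38.p6), were read for shared features. Asxl3 had no entry. There were 13 windows, and 12 of them had more CG dinucleotides than the median of 7 over all 32851 windows, from 12 in a window of Dnmt1 to 57 in that of Tet2, with 2 in another window of Dnmt1. The letters TTCCCGC or TTGGCGC, of the kind that E2F factors bind, were searched on both strands and lay in 3 of the 13 windows, those of Asxl1 and Ezh2 and 1 of 3 of Dnmt1. Of all windows, 6.81% held either. Both strings contain CG, and this share is over windows of any CG content, so it is not a like background for these CG-rich windows. A match is a description of the letters only.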

How the data were processed

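RNA-Seq of 4 libraries, 2 per age, was analysed. The labels' titles gave the groups. Per the methods, the authors removed adapters with CutAdapt, used HISAT2 to map reads to mm9 and featureCounts to count them, with versions, strand setting and annotation not given in the sources used here. The libraries were poly(A)-selected per the labels. The methods, however, exempt some named samples, which were processed as total RNA, among them a sample named by an age in weeks. These names do not match the titles of the libraries, so whether a mature library was among them is not settled. Whether the ages differed in RNA selection, and whether this moved the values that rest on kept introns, was not tested. The deposited values are raw counts per transcript. Of 95883 transcripts, 95495 were matched to GENCODE M1 (mm9). The others held at most 0.0888% of the counts.

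Counts were summed per gene symbol. Genes or transcripts with a count sum over 2 were normalized by TMM and tested with edgeR 4.0.16 (quasi-likelihood, trended dispersion, prior count 0.125) in R 4.3.3, with Benjamini-Hochberg adjustment over all tested, called at 0.05. Intervals of fold changes are 95% intervals from the fit's standard error. DESeq2 1.42.0, the study's exact test at a dispersion of 0.2, other filters and scalings, the replicate number as a term and each library left out were alternatives. The members, gene lists and tests were chosen with earlier results of these data known. The genes named are all members, their tested transcripts, defining partner subunits (Bap1, Ezh1, Eed, Suz12, Uhrf1, Hells, Tdg), called partner genes, Mki67 and Top2a. The gene of highest mean CPM was named per marker list. Piwil2, Bcor, Ddx4, Pcna, Igj, Prdm1, Xbp1, the markers at 0 and the pair of Ezh2 transcripts were named after their values were seen.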

Additional observations from a re-analysis of the deposited data

How the results depend on the processing

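Called members other than Asxl3 numbered 0, genes and transcripts alike, under every alternative run. Of 132 alternative fits of the 9 genes other than Asxl3, 128 kept the direction and 0 had an adjusted p under 0.05. With coding transcripts only, the log2 fold change was 1.15 for Asxl1, 0.35 for Asxl2 and −1.26 for Asxl3. With each library left out in turn, Asxl2 ranged from −0.90 to 0.12, Ezh2 from −0.31 to 0.095, Bap1 from −0.0030 to 0.20, Ezh1 from −0.58 to 0.030, Eed from −0.031 to 0.22 and Tdg from −0.18 to 0.079. Ezh2, Asxl2 and Ezh1 changed sign without elderly replicate 2, Bap1 without mature replicate 2, Eed without mature replicate 1 and Tdg without mature replicate 2 (0.021) or elderly replicate 2. Tdg was 0.0094 with library size alone. The cause was not tested.

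Called partner genes numbered 2 in the robust fit and without a filter, 0 in the exact test and with filterByExpr, and 0 to 1 with a library left out, against 1. Proliferation and marker genes numbered 12 in the exact test and 0 to 36 with a library left out, against 28. A fit that leaves out a library assumes that the lone sample of an age varies like the other age.

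With the replicate number as a block, 4 partner genes and 43 proliferation and marker genes were called. The labels give both ages the numbers 1 and 2, but same-numbered libraries did not deviate together (correlation 0.00657 over genes and 0.0196 over transcripts), so the numbers were not taken to pair them.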
